A study of Mus musculus with 6 samples.

Results

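The adult globin genes Hbb-bs, Hbb-bt, Hba-a1 and Hba-a2 and the erythroid heme synthesis gene Alas2 were followed across RNA-seq libraries of mouse peritoneal macrophages. These 5 genes, of 54648 gene symbols in the deposited table, were matched by symbol, and they were chosen by their measured levels, since the beta globins were high in some FOXO3 KO libraries of this same table. Their difference between the groups is therefore a description and carries no test. All 5 passed the filter on low counts in both sets of libraries that were fitted.

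Macrophages were taken from wildtype (WT) and FOXO3 knockout (FOXO3 KO) mice, with 3 libraries of each, all C57BL/6, 6 to 8 weeks old and on standard chow. FOXO3 is a forkhead transcription factor, and the FOXO3 KO mice carried a homozygous loss of the gene in the whole animal, with genotyped littermates of both sexes in the colony. Every mouse received 3% thioglycollate into the abdominal cavity, an irritant that draws leukocytes there, and the peritoneal cells were collected 4 days later and pelleted, with no sort described. Paired 76 bp reads of total RNA gave totals of 28083572 to 36424331 estimated counts in a library.

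Hemoglobin carries oxygen in red blood cells as a tetramer of alpha and beta globin chains, each holding a heme. In adult mice of the C57BL/6 type the beta chains come from Hbb-bs and Hbb-bt and the alpha chains from Hba-a1 and Hba-a2, and these transcripts dominate the RNA of reticulocytes, the young red cells that still hold RNA. Alas2 encodes the erythroid form of 5-aminolevulinate synthase, the first enzyme of heme synthesis, whereas most other cells use Alas1, and macrophages are better known for taking up aged red cells and breaking heme down.

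Each globin pair consists of near-identical copies, which bears on how far their counts can be told apart. In GRCm38 with the GENCODE M21 annotation, Hbb-bs lies at chr7:103826534-103828096 and Hbb-bt at chr7:103812524-103813996, both on the minus strand with 3 exons, while Hba-a1 lies at chr11:32283511-32284465 and Hba-a2 at chr11:32296489-32297298, both on the plus strand with 3 exons. Alas2 lies at chrX:150547375-150570638 on the plus strand with 11 exons. The coding sequences of Hbb-bs and Hbb-bt, 444 bases each, differ at 1 base, C417T, and those of Hba-a1 and Hba-a2, 429 bases each, at 1 base, C381T, with positions counted from the A of the start codon and the first gene's base given first. Both differences fall at base 3 of a codon. The stretch of 76 coding bases, the length of 1 read, around each difference is shown with the differing base in capitals, since a read has to cover that letter to separate the copies within the coding sequence.
Hbb-bs: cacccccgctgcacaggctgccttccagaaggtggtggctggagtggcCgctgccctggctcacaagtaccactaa
Hbb-bt: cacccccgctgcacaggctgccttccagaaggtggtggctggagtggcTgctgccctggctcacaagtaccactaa
Hba-a1: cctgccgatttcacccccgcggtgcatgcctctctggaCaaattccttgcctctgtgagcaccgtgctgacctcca
Hba-a2: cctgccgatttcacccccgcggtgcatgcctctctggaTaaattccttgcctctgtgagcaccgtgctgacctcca
Of all 76-base windows of the Hbb-bs coding sequence, 341 of 369 (92.4%) also occurred in Hbb-bt, and 305 of 354 (86.2%) of those of Hba-a1 occurred in Hba-a2. Over whole transcripts, untranslated ends included, 355 of 553 windows of Hbb-bs (64.2%) were shared with Hbb-bt, and 387 of 479 windows of Hba-a2 (80.8%) were shared with Hba-a1. Counted from the other copy, the shares were lower, 355 of 628 windows of Hbb-bt (56.5%) and 387 of 624 of Hba-a1 (62.0%). Windows were taken singly, without the mate of a read pair. No window was shared between Hbb-bs and Hba-a1. The deposited counts of single copies were fractional, whereas the sum of each pair lay within 0.003 of a whole number in every library, so the level of a pair is firmer than its split between copies.

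The 250 bases before each start site, from RefSeq on GRCm38.p6, are shown because these genes moved together. These RefSeq starts lie inside the GENCODE gene spans given above, so each window overlaps the span of its gene at the end nearest the start. Capitals mark the letters AGATAA or otherwise TGATAA, which GATA factors such as the erythroid GATA1 can bind, and CACCC, a box that KLF1 and related factors can bind, on either strand.
Hbb-bs, chr7:103827929-103828178, minus strand: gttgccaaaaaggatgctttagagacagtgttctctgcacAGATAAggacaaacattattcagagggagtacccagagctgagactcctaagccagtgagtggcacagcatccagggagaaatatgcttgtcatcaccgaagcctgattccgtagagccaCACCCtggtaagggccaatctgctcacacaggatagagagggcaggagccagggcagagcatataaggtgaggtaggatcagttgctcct
Hbb-bt, chr7:103813924-103814173, minus strand: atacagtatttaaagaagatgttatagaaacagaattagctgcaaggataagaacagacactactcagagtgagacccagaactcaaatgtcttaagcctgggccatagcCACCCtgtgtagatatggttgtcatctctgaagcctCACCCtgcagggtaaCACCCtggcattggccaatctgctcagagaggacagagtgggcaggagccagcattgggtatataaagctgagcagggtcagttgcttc
Hba-a1, chr11:32283422-32283671, plus strand: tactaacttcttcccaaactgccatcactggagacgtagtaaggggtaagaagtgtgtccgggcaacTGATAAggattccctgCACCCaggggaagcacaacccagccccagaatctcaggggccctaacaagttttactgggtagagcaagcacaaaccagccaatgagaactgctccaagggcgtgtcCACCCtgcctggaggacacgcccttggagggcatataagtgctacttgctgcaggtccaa
Hba-a2, chr11:32296242-32296491, plus strand: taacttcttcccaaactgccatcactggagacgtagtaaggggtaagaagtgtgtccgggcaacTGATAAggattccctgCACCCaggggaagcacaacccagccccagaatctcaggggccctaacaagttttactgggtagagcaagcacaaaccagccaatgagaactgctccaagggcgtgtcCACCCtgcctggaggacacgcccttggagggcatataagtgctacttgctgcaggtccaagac
Alas2, chrX:150547167-150547416, plus strand: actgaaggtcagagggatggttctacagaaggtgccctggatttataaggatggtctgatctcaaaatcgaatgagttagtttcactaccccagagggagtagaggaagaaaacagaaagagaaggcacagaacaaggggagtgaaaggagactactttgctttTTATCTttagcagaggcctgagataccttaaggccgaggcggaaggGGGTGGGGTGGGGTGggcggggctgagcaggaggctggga
AGATAA stood once in the windows of Hbb-bs and Alas2, and 9.99% of 32851 promoter windows, of the same 250 bases before the start, held it. TGATAA stood once in those of Hba-a1 and Hba-a2, and 7.94% of all windows held it, while Hbb-bt had neither. With any of 4 such letter strings counted, these included, 26.5% of all windows held a match, as did those of every member but Hbb-bt. CACCC stood 1, 3, 2, 2 and 3 times in the windows of Hbb-bs, Hbb-bt, Hba-a1, Hba-a2 and Alas2, and 52.0% of all windows held it. Taken with bases after the start, the sequences of Hba-a1 and Hba-a2 were identical over all 297 overlapping bases at a shift of 3. These 297 bases reach past the 250-base windows shown. TGTTTAC, a forkhead core of the kind FOXO proteins can bind, was found in none of the 5 windows and in 3.17% of all. These matches are of letters only, and no binding was measured.

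Foxo3, the targeted gene, was read first as a check of the labels. Levels here are counts scaled to a common library size of 1000000 after TMM factors (CPM). Foxo3 stood at 117, 107 and 73.0 CPM in WT 1, 2 and 3, and at 4.71, 104 and 4.28 CPM in FOXO3 KO 1, 2 and 3. The library labelled FOXO3 KO 2 thus lay within the WT range for Foxo3, against its label. Every comparison was therefore made over all 6 libraries as labelled and again without the library labelled FOXO3 KO 2. The estimated log2 fold change of Foxo3 was -1.40 (SE 1.22, n = 3 and 3) with it and -4.46 (SE 0.29, n = 3 WT and 2 FOXO3 KO) without it. WT 3 also stood apart, with correlations across genes of 0.929 to 0.956 with the other libraries, against 0.986 to 0.994 among those. Xist, the non-coding RNA of the silenced X chromosome, had 31162 and 37681 counts in WT 3 and FOXO3 KO 3 and at most 5 in the others.

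Both beta globins were highest in FOXO3 KO 1 and FOXO3 KO 3. Hbb-bs, the more abundant beta copy, was at 11.8, 4.72 and 12.5 CPM in WT 1, 2 and 3 and at 59.6, 4.92 and 89.5 CPM in FOXO3 KO 1, 2 and 3. FOXO3 KO 1 and 3 lay above every WT library, while the library labelled FOXO3 KO 2 lay between WT 2 and WT 1, so the groups as labelled overlapped. The mean was 9.68 ± 4.31 CPM in WT and 51.3 ± 42.9 CPM in FOXO3 KO (SD, n = 3 each), an estimated log2 fold change of 2.40 (SE 0.96). With that library left out, the remaining FOXO3 KO pair averaged 74.6 ± 21.1 CPM (SD, n = 2), with an estimate of 2.94 (SE 0.46) on the log2 scale. Hbb-bt, the less abundant beta copy, followed the same course, at 1.63, 1.09 and 1.98 CPM in WT and 8.88, 0.838 and 16.4 CPM in FOXO3 KO. Its lowest library was the one labelled FOXO3 KO 2, and its log2 fold change was 2.47 (SE 0.94) with that library and 3.004 (SE 0.40) without it.

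The alpha globins followed the beta globins from library to library. Hba-a1 was at 5.28, 2.04 and 4.75 CPM in WT and 18.7, 1.24 and 28.1 CPM in FOXO3 KO. The library labelled FOXO3 KO 2 was the lowest of the 6, and the groups overlapped only through it. The log2 fold change of Hba-a1 was 1.99 (SE 0.99) over all 6 libraries and 2.54 (SE 0.45) without that library, the smallest of the 5 genes in both. Hba-a2, the other alpha copy, was at 5.53, 1.66 and 7.31 CPM in WT and 28.8, 1.97 and 44.97 CPM in FOXO3 KO. WT 2 and the library labelled FOXO3 KO 2 were the low pair, and the log2 fold change was 2.38 (SE 1.07) with the latter and 2.93 (SE 0.62) without it.

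Alas2 was scarce everywhere. It had 8, 3 and 13 counts in WT 1, 2 and 3, or 0.221, 0.106 and 0.363 CPM, and 37, 7 and 99 counts in FOXO3 KO 1, 2 and 3, or 1.31, 0.255 and 2.96 CPM. The 95% Poisson interval, which covers counting error only, ran from 0.193 to 0.621 CPM in WT 3 and from 0.922 to 1.80 CPM in FOXO3 KO 1, while those of WT 1, WT 2 and the library labelled FOXO3 KO 2 overlapped one another. The mean was 0.230 ± 0.129 CPM in WT and 1.51 ± 1.37 CPM in FOXO3 KO (SD, n = 3 each), and 2.14 ± 1.17 CPM over FOXO3 KO 1 and 3. The log2 fold change was 2.68 (SE 0.91) over all 6 libraries and 3.18 (SE 0.62) without the library labelled FOXO3 KO 2, and it fell to 1.73 and 2.496 in these sets when FOXO3 KO 3 was left out.

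Summed, the 4 globins gave 24.3, 9.51 and 26.5 CPM in WT and 116, 8.96 and 179 CPM in FOXO3 KO. They took 0.0185% of all counts in FOXO3 KO 3, the highest library, so they were a small share of the RNA throughout. FOXO3 KO 3 exceeded FOXO3 KO 1 for every member, by 1.501 times for Hbb-bs and up to 2.26 times for Alas2. The lower of this pair exceeded the highest of the other 4 libraries by between 3.54 times for Hba-a1 and 4.77 times for Hbb-bs. That order, with FOXO3 KO 1 and 3 above the other 4 libraries, held for all 5 members, and for 6.39% of all 15608 genes tested. It is the order for which the beta globins were picked, so nothing is read from the count. Likewise, without the library labelled FOXO3 KO 2 all 5 members had every FOXO3 KO library above every WT library, as did 11.0% of 16217 genes, whereas over all 6 libraries none of the members did, beside 1093 of 15608 genes. In bulk RNA, more globin-bearing cells and more globin RNA per cell cannot be told apart.

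**Figure D1:**
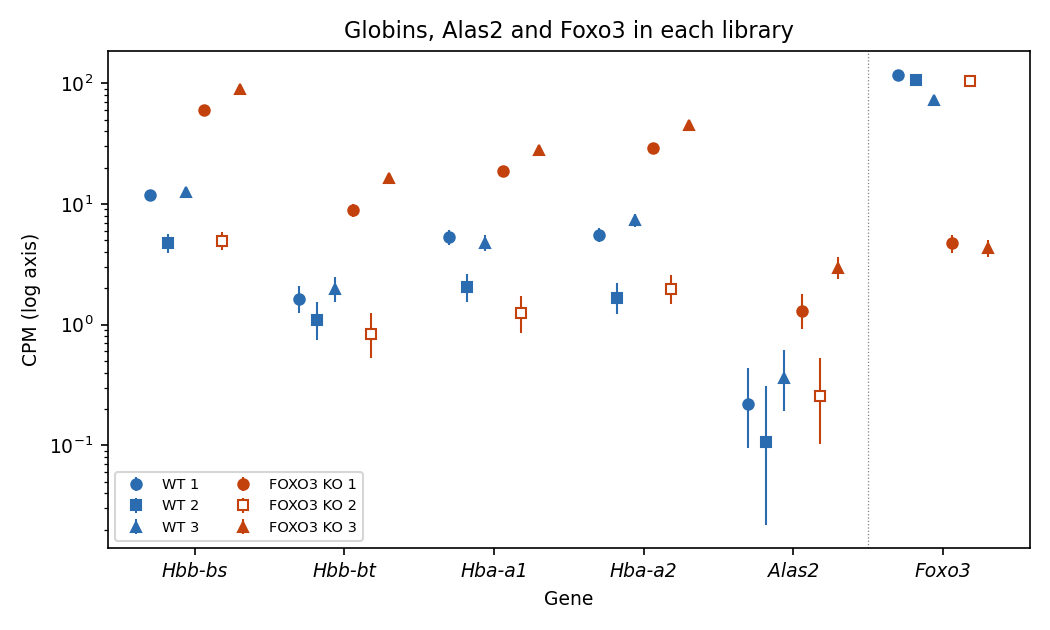
CPM on a log axis for the 4 globins, Alas2 and Foxo3, with 1 point per library and bars giving 95% Poisson intervals (counting error only); blue is WT, orange FOXO3 KO, and the open square the library labelled FOXO3 KO 2. FOXO3 KO 1 and 3 are the highest libraries for every member and the lowest for Foxo3, while the open square lies beside the WT points throughout.

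The ratios of FOXO3 KO 1 and FOXO3 KO 3 to the WT mean were of like size on either side of the Xist split. Among the libraries with little Xist, the 4 globins summed were 6.87 times higher in FOXO3 KO 1 than in the mean of WT 1 and WT 2, and in those with much Xist they were 6.74 times higher in FOXO3 KO 3 than in WT 3. The library labelled FOXO3 KO 2 stood at 0.531 of the mean of WT 1 and WT 2. For Alas2 the same ratios were 8.01, 8.17 and 1.56, the last resting on 7 counts. WT 1 and WT 2 were themselves at 24.3 and 9.51 CPM for the 4 globins summed, so the ratio of FOXO3 KO 1 depends on taking their mean. Each side of the split holds too few libraries for a test.

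The proportions among the members moved far less than their levels. Beta globins made up 55.4%, 61.1% and 54.6% of globin counts in WT 1, 2 and 3 and 59.1%, 64.2% and 59.2% in FOXO3 KO 1, 2 and 3, with exact 95% binomial intervals that span 51.3% to 58.7% over WT 1 and WT 3 and 57.4% to 60.8% over FOXO3 KO 1 and 3. The interval of WT 2 overlapped those of all the others, and that of the library labelled FOXO3 KO 2, 57.9% to 70.2%, overlapped all but that of WT 3, which ended at 57.8%. Within the beta pair, Hbb-bs took between 81.2% and 87.9% of the counts. Within the alpha pair, Hba-a2 took 51.2%, 44.8% and 60.6% in WT and 60.6%, 61.4% and 61.5% in FOXO3 KO, a split that depends on how shared reads were assigned. Per kilobase of coding length, the levels in FOXO3 KO 3 were 202 CPM for Hbb-bs, 105 for Hba-a2, 65.5 for Hba-a1, 36.9 for Hbb-bt and 1.68 for Alas2. Alas2 was 0.904%, 1.10% and 1.35% of the globin and Alas2 counts in WT and 1.12%, 2.77% and 1.63% in FOXO3 KO, the 2.77% having an exact interval of 1.12% to 5.62%.

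**Figure D2:**
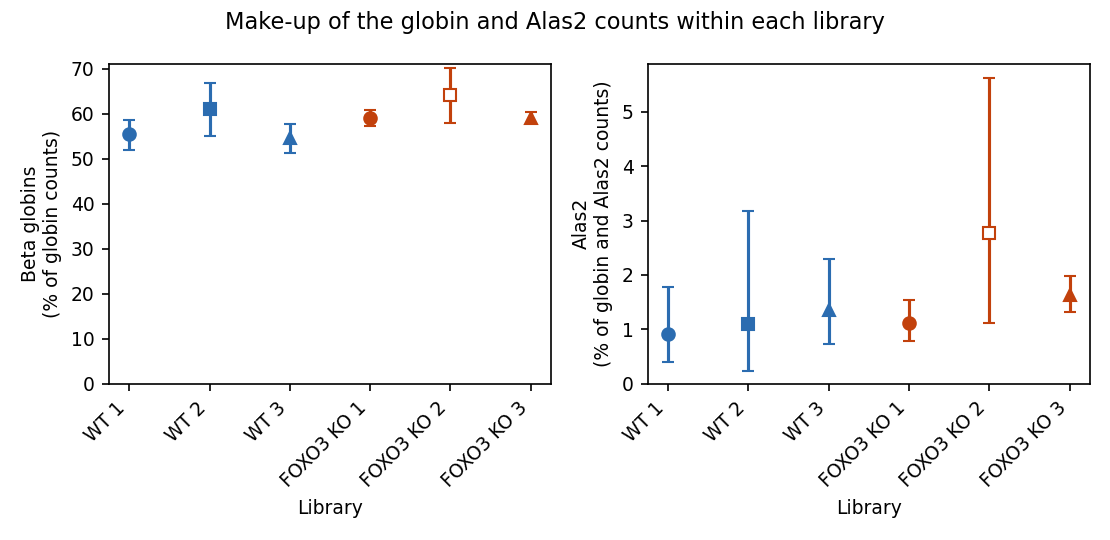
Left, beta globins as a percent of all counts of the 4 globins; right, Alas2 as a percent of globin and Alas2 counts; 1 point per library with exact 95% binomial intervals (counting error only). The beta share stays between 54.6% and 64.2%, although globin counts differ 20.0 times between the highest and lowest library in CPM.

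Other genes of red cells were then taken from lists of heme synthesis, membrane, cytosolic and transcription factor genes and of other globins, and tested with edgeR's quasi-likelihood test. At an adjusted p under 0.05 with a fold change over 1.5 it called 0.00% of all genes in either set of libraries, so 0 of 45 tested erythroid genes over all 6 libraries and 0 of 46 without the library labelled FOXO3 KO 2. The smallest adjusted p of any gene by that test was 0.714 and 0.105 in these sets. Foxo3 itself was thus not called in either, so the absence of calls says little about the erythroid genes. DESeq2 called 0.794% and 0.666% of all genes, among them Aqp1 of these lists over all 6 libraries. At an unadjusted p under 0.05 with that fold, the quasi-likelihood test put 2 erythroid genes higher over all 6 libraries, Aqp1 and Sptb, beside 3.28% of all genes, and 1 without the library labelled FOXO3 KO 2, beside 2.71%. It put 0 lower in either set, beside 0.999% and 0.900% of all genes. Of the 45 genes, 18 had higher and 27 lower estimates in FOXO3 KO, and their median was -0.06 on the log2 scale, against -0.01 over all genes. P-values here measure the spread between these libraries.

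Heme synthesis genes other than Alas2 showed no shift of that size. All 16 were tested, 5 had higher and 11 lower estimates, and the median log2 fold change was -0.07. Alas1, the form of the enzyme that most cells use, was at 117, 136 and 48.5 CPM in WT and 116, 114 and 95.1 CPM in FOXO3 KO, an estimate of 0.11 on the log2 scale (SE 0.37). Fech, which inserts iron into the ring, had -0.16 (SE 0.28), and Slc25a37, the mitochondrial iron importer, -0.46 (SE 0.44). The highest estimate of the list was that of Tmem14c, a porphyrin transporter, at 0.23 (SE 0.22), and Slc25a37 had the lowest. Ppox, the next to last enzyme of the pathway, had -0.35 (SE 0.12, adjusted p = 0.827 by edgeR's quasi-likelihood test).

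Genes of the red cell membrane were mostly too low to test. Of 20, 9 passed the filter, and 7 had higher and 2 lower estimates with a median of 0.02. Aqp1, a water channel that endothelial and mesothelial cells also express, was at 1.11, 1.02 and 0.642 CPM in WT and 1.80, 7.72 and 7.13 CPM in FOXO3 KO. It was high in the library labelled FOXO3 KO 2, where the globins were low. Its log2 fold change was 2.58 (SE 0.60, adjusted p = 0.714 by edgeR's quasi-likelihood test). Sptb, which encodes erythroid beta spectrin, had 11, 7 and 21 counts in WT and 23, 20 and 27 in FOXO3 KO, with a log2 fold change of 1.03 (SE 0.39, adjusted p = 0.839 by the same edgeR test). The commonest, Epb41 and Gypc, which are widely expressed, had log2 fold changes of 0.01 (SE 0.09) and 0.02 (SE 0.08).

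Of the cytosolic and maturation genes 8 of 13 passed the filter, with 2 higher and 6 lower estimates and a median of -0.07. Bnip3l, which clears mitochondria from reticulocytes and is active in many cells, was the most abundant at 223 to 478 CPM in WT and 267 to 393 CPM in FOXO3 KO. Of the erythroid transcription factors and receptors 11 of 13 were tested, with 4 higher and 7 lower estimates and a median of -0.37. Bcl11a, which silences embryonic globins and is also a B cell gene, fell outside the globin order, at 25.1, 12.1 and 105 CPM in WT and 8.95, 13.6 and 26.6 CPM in FOXO3 KO. The embryonic globins were at or near 0: 8 of 14 other globin genes had no count in any library, and Hbb-y had at most 3. Adgb, a large chimeric globin, was the 1 other globin tested, and its 59.1 CPM in WT 3 stood against 2.29 to 8.56 CPM in the rest.

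**Figure D3:**
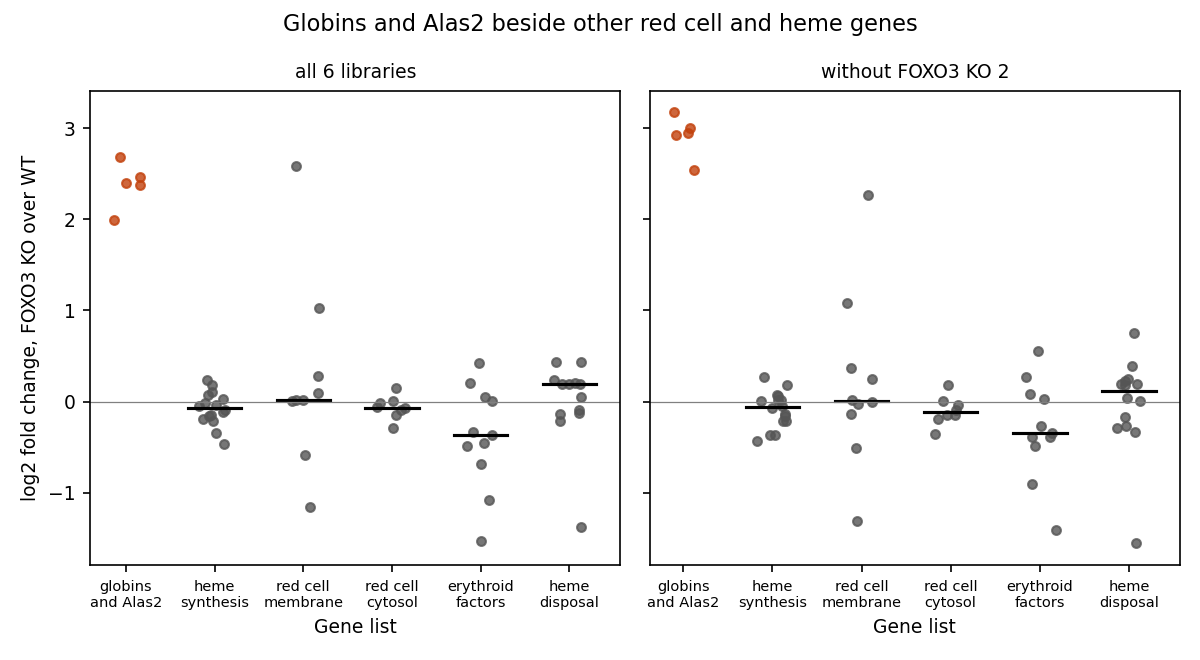
Estimated log2 fold change, FOXO3 KO over WT, for each tested gene of 6 lists, with all 6 libraries at left and without FOXO3 KO 2 at right; black lines are list medians, and the orange points are the 5 genes picked for their rise. The 5 members lie between 1.99 and 2.68 at left, while the medians of the other lists lie between -0.37 and 0.19; the high point in the membrane list is Aqp1.

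The labelled cell type was checked against its markers, and the summed levels of other cell types were set beside the globins. The 12 macrophage markers summed to between 15563 and 19852 CPM in every library, with Lyz2 alone at 7734 to 11412 CPM. Single markers were less even. Cd68 was at 524 CPM in WT 3 against 989 to 1470 CPM in the rest, and Fcgr1 at 62.1 against 142 to 178 CPM. Adgre1, C1qa, C1qc and Itgam were instead highest in WT 3. Of the defining markers of erythroid cells, Slc4a1, the anion exchanger, had at most 2 counts in a library, and Car1 had 0 in all. Klf1 had 3 to 11 counts in a library. Gata1, which mast cells and eosinophils also use, was at 1.88, 1.41 and 0.670 CPM in WT and 1.17, 1.42 and 2.69 CPM in FOXO3 KO. Ahsp was not analysed here.

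How the red cell markers summed depended on which genes were kept. The full list of 15, of which 14 were matched and 5 are the members, summed to 26.7, 11.7 and 28.2 CPM in WT and 119, 11.1 and 185 CPM in FOXO3 KO, nearly all of it globin. Without the 4 globins, with Alas2 kept, the sum was 2.46, 2.18 and 1.62 CPM in WT and 2.90, 2.11 and 6.08 CPM in FOXO3 KO, with FOXO3 KO 1 and 3 still the highest libraries. With Alas2 also left out it was 2.24, 2.08 and 1.26 CPM in WT and 1.59, 1.86 and 3.11 CPM in FOXO3 KO, so FOXO3 KO 3 remained highest and FOXO3 KO 1 fell below WT 1 and WT 2. Both shorter sums were formed after values had been seen, the last after the sum with Alas2, and the last rests mostly on Gata1. The place of FOXO3 KO 1 among the red cell markers thus rests on the globins and Alas2.

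The sum of neutrophil markers was also highest in FOXO3 KO 1 and FOXO3 KO 3. The 13 markers, all matched, summed to 217, 225 and 137 CPM in WT and 502, 231 and 425 CPM in FOXO3 KO, with FOXO3 KO 1 and 3 highest, though in the reverse order to the globins. Of 8 tested, 8 had higher estimates, and 5 had FOXO3 KO 1 and 3 above the other 4 libraries, beside 6.39% of all genes. Over all 6 libraries edgeR's quasi-likelihood test called 0 of the 8. At an unadjusted p under 0.05 with a fold over 1.5 it put 3 higher, beside 3.28% of all genes. DESeq2 called 3, S100a8, S100a9 and Cxcr2, beside 0.794% of all genes, and edgeR's likelihood ratio test 2, beside 109 of 15608. S100a9, a calcium-binding protein of neutrophils, was at 0.470, 5.60 and 0.251 CPM in WT and 164, 6.92 and 117 CPM in FOXO3 KO. S100a8 was at 7.88, 11.3 and 2.40 CPM in WT and 83.0, 12.9 and 59.7 CPM in FOXO3 KO. Much of the rise of the sum lay in S100a8 and S100a9. Cxcr2, a chemokine receptor of neutrophils, was at 0.885, 0.881 and 0.586 CPM in WT and 18.7, 2.22 and 14.4 CPM in FOXO3 KO. Of the granule genes, Ltf had 21, 25 and 12 counts in WT and 43, 10 and 36 in FOXO3 KO, again highest in FOXO3 KO 1 and 3. Ngp had 7 counts in WT 2, 0 in FOXO3 KO 1 and 3 in FOXO3 KO 3, and Camp and Elane had at most 2 counts in a library.

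The sum of mesothelial markers, of the cells that line the cavity, was above every WT library in all FOXO3 KO libraries. It was 6.80, 5.67 and 9.49 CPM in WT and 12.5, 42.9 and 18.1 CPM in FOXO3 KO, highest in the library labelled FOXO3 KO 2, where the globins were low. Of 7 tested over all 6 libraries, 6 had higher estimates, beside 48.8% of all genes. At an unadjusted p under 0.05 with a fold over 1.5, edgeR's quasi-likelihood test put 5 higher, beside 3.28% of all genes. It called 0, while DESeq2 called 3, Upk1b, Krt19 and Wt1, beside 0.794% of all genes. Single markers did not all follow the sum. Msln had 5, 0 and 8 counts in WT and 0, 2 and 0 in FOXO3 KO. Krt18 was highest in WT 3, at 2.01 CPM, and Gpm6a was at 3.04 CPM in WT 3 against 1.59 and 1.68 CPM in FOXO3 KO 1 and 3. B cell markers summed to 835, 448 and 3675 CPM in WT and 201, 395 and 779 CPM in FOXO3 KO. Platelet markers, which share the blood with red cells, summed to 108 to 255 CPM in WT and 110 to 131 CPM in FOXO3 KO, most of it Pf4, at 80.7 to 219 CPM over the 6 libraries. Of 7 platelet markers tested over all 6 libraries, 2 had higher and 5 lower estimates, with a median log2 fold change of -0.24. Without the library labelled FOXO3 KO 2, 8 were tested. Only Ppbp of these had FOXO3 KO 1 and 3 above the other 4 libraries, beside 1068 of 16217 genes. Ppbp, a platelet chemokine, had 7, 5 and 4 counts in WT and 21, 3 and 10 in FOXO3 KO. Clec1b went the other way, lowest in FOXO3 KO 1 and 3 at 1.66 and 1.23 CPM. The part of any of these cells in the globin levels was not tested.

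**Figure D4:**
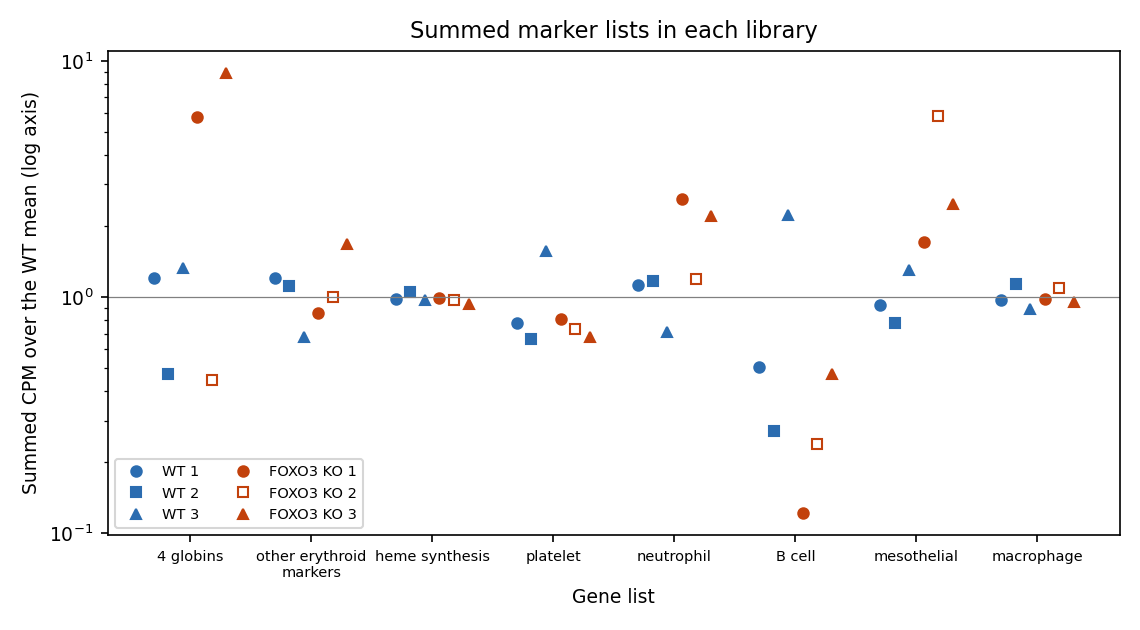
Summed CPM of each marker list in each library, divided by the mean of the 3 WT libraries, on a log axis; blue is WT, orange FOXO3 KO, and the open square the library labelled FOXO3 KO 2. The other erythroid markers are the list without the globins and Alas2, a subset formed after values were seen; with Alas2 kept, FOXO3 KO 1 lies above the WT libraries, at 2.90 against at most 2.46 CPM.

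Genes by which macrophages take up and break down hemoglobin and heme had other orders of the libraries than the globins. Of 15, 13 were tested over all 6 libraries, 8 had higher and 5 lower estimates, and the median log2 fold change was 0.19. Hmox1, which opens the heme ring, was at 255, 277 and 111 CPM in WT and 274, 245 and 218 CPM in FOXO3 KO, an estimate of 0.19 on the log2 scale (SE 0.34). Cd163, the hemoglobin-haptoglobin receptor, had -0.22 (SE 0.17). Hp, haptoglobin itself, was at 11.4, 16.2 and 68.5 CPM in WT and 45.3, 22.6 and 62.1 CPM in FOXO3 KO. Spic, a factor of red pulp macrophages, had 37, 19 and 54 counts in WT and 12, 14 and 10 in FOXO3 KO, an estimate of -1.38 on the log2 scale (SE 0.41, adjusted p = 0.731 by edgeR's quasi-likelihood test), and was low in the library labelled FOXO3 KO 2 as well.

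The genes most like the globin sum across the 6 libraries, by Pearson correlation of log2(CPM + 0.5) and outside the members, were Dip2c (0.992), Zscan29 (0.988), Paqr8 (0.985), Cdk2ap1 (0.975) and F13a1 (0.974). Their levels differed by only 1.15 times, for Zscan29, to 2.45 times, for F13a1, between the highest and lowest library. Most like Alas2 were Atrnl1 (0.991), Flt3 (0.981), Skint3 (0.978), Cd300e (0.977) and Ccdc93 (0.976). The members themselves correlated with the globin sum at 0.941 for Alas2 to 0.999 for Hbb-bs, 4 of them being parts of that sum. These values describe 6 points that share the 2 high libraries and were the best of 15608 genes.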

How the data were processed

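The 3 WT and 3 FOXO3 KO libraries of peritoneal macrophages came as 1 table of estimated counts per gene symbol, which the authors deposited without normalization. The submitters' processing notes name STAR 2.6.1d, kallisto 0.46.0 and DESeq2 with the build mm10, with no role for each, so how reads shared by globin copies were assigned is not given in the sources used here. Counts were rounded to whole numbers, and 81.4% of all values, zeros included, were within 0.01 of one before that. Group means without rounding gave log2 fold changes of the members from 1.99 for Hba-a1 to 2.71 for Alas2 over all 6 libraries. The fitted values were 1.99 and 2.68. Samples were grouped by their labels. The library totals were 28083572 to 36424331 counts, and intervals cover counting error only.

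edgeR 4.0.16 in R 4.3.3 fitted 15608 genes over all 6 libraries and 16217 without the library labelled FOXO3 KO 2 (filterByExpr, TMM, quasi-likelihood test, Benjamini-Hochberg adjustment over all genes tested), with DESeq2 1.42.0, limma 3.58.1 and the other alternatives given in the closing section. Each SE of a log2 fold change is the absolute estimate divided by the square root of the F statistic of the quasi-likelihood test. For the members it therefore restates that statistic and is given as a description only. The labels do not state that each library came from a separate mouse, so p-values may measure technical spread. On simulated counts for 3 against 3 libraries and 15608 genes, quasi-likelihood calls included 107 of 191 changed genes and 58 of the 69 with the largest simulated fold, with 3.60% false calls, and DESeq2 gave 25.9% false calls. For 3 against 2 libraries and 16217 genes, the quasi-likelihood test found 62 of 194, and 31 of the 55 with the largest fold. The simulated libraries of a group shared 1 mean per gene, with none set apart like WT 3 or the library labelled FOXO3 KO 2. The shares recovered therefore do not carry over to the data, where that test called 0 genes.

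The members, the gene lists and the tests were chosen with earlier results of these data known. Named genes were the 5 members, Foxo3, up to 6 genes of each list (the most abundant, the largest rises and falls, and any called), the defining erythroid markers, and the 5 genes most like the globin sum and Alas2. The 2 shortened erythroid marker sums, and any gene not covered by this rule, were chosen after values were seen. Values of some listed genes are not reported here. Python 3.11.15 made the remaining tables.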

Additional observations from a re-analysis of the deposited data

How the results depend on the processing

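All 165 alternative estimates for the members were higher in FOXO3 KO, and the direction follows from how the members were picked. Of these, 162 moved by less than 1 SD, and the other 3 came from leaving out FOXO3 KO 3. That SD was wide over all 6 libraries, at 0.80 to 1.75 on the log2 scale. There the library labelled FOXO3 KO 2 differs from the other 2 FOXO3 KO libraries. Without that library the SD was 0.48 to 0.76. Over all 6 libraries, leaving out FOXO3 KO 3 took the log2 fold changes to 1.74 for Hbb-bs, 1.63 for Hbb-bt, 1.31 for Hba-a1 and 1.67 for Hba-a2, and limma-voom to 1.73, 1.76, 1.28 and 1.78, each over 1.5 times lower in fold; leaving out the library labelled FOXO3 KO 2 raised them to the values of the second set. With each library left out in turn, the log2 fold change of Alas2 ran from 1.73 (without FOXO3 KO 3) to 3.18 over all 6 libraries and from 2.496 to 3.64 in the set without FOXO3 KO 2, where that of Hbb-bt ran from 2.52 to 3.37. Genes called over all 6 libraries numbered 0 by edgeR's quasi-likelihood test (512 higher and 156 lower at an unadjusted p under 0.05 with the same fold), 124 by DESeq2 and 109 by the likelihood ratio test, and these last 2 each called 1 erythroid gene, Aqp1. Without FOXO3 KO 2 the counts were 0 (440 and 146 unadjusted), 108 by DESeq2, 77 by the likelihood ratio test, 10 with no filter on low counts, 17 with a covariate for Xist, and 0 to 4 with each library left out, the 4 being without WT 3. With the replicate number as a block, 284 genes were called without FOXO3 KO 2, among them 1 erythroid gene, Bcl11a, and 0 over all 6 libraries. The labels tie no numbers to shared animals or days. Deviations of same-numbered libraries correlated at 0.34, -0.06 and 0.57, with WT 2 closest to FOXO3 KO 1 at 0.61. Deviations within groups of 3 libraries cannot decide whether the numbers pair them. Under the block the members' log2 fold changes lay between 1.38 and 2.48 over all 6 libraries and between 2.20 and 2.81 without FOXO3 KO 2. The cause of these differences was not tested. Alas2 had only 3 to 13 counts in a WT library, and the split between globin copies depends on how shared reads were assigned.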
